A study of Mus musculus with 72 samples.

Results

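Oligodendrocytes make the myelin that wraps axons, and the genes described here mark the steps by which these cells form in the brain of mice. A list of 28 oligodendrocyte and myelin genes was followed across hippocampal RNA of 72 mice. A gene was taken as measured where a probe set, the group of short DNA probes that reports a transcript on the array, was annotated with its symbol and no other. This held for 26 of the 28 genes, each with 1 probe set, among 18820 genes so annotated on the array and 35556 probe sets in all. Mbp and Nkx6-2 have only probe sets that also carry another symbol, so no value is given for them. The 26 genes comprise 2 of precursor cells, 3 lineage transcription factors, 3 of newly formed oligodendrocytes and 18 of myelinating oligodendrocytes.

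The study asked how hippocampal gene expression changes after contextual fear conditioning, in which a chamber becomes tied to a foot shock, and after retrieval of that memory, with controls for time of day. All mice were adult male C57BL/6J, an inbred strain, 2 months old and handled for 3 days, under 12 h of light from 7 am and 12 h of dark. Each of 8 groups held 9 mice, and both hippocampi of a mouse (2 per mouse) went onto 1 array. Training took place at 10 am, with a shock of 2 s at 1.5 mA that ended at 2.5 min in the chamber. Trained mice make up FC30, FC4, FC12 and FC24, whose hippocampi were taken after 30 min, 4 h, 12 h and 24 h in that order. The RT30 group was also trained, spent another 5 min in the chamber at 24 h and gave its tissue 30 min after this retrieval. CC30, CC4 and CC12 are untrained, handled mice whose dissection fell at the times of day of FC30, FC4 and FC12. CC30 is also the control of FC24 and RT30. CC12 and FC12 were therefore dissected in the dark phase and the 6 other groups in the light phase. The dark phase was sampled at a single time of day, so darkness and clock hour cannot be told apart. Among trained mice, FC12 also differs from FC4 and FC24 in time since training. There, phase and time since training cannot be told apart either.

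Oligodendrocytes arise from precursor cells that carry the PDGF receptor Pdgfra and the proteoglycan Cspg4 (NG2). The transcription factors Olig1, Olig2 and Sox10 are used along the whole lineage. Cells that leave the precursor state pass through a short stage marked by the receptor Gpr17, the choline phosphodiesterase Enpp6 and Bcas1, and then switch on the proteins and lipid enzymes of the myelin sheath. In the hippocampus, myelin lies mainly in the fibre tracts that border and cross it. The samples were homogenised tissue, so fewer cells of a type and less RNA for each cell cannot be told apart in any value below.

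The values are log2 signals that the authors obtained with RMA, which corrects the background and quantile-normalizes the arrays. The study's methods correct for a first principal component, and the largest component of variation across arrays (PC1), found on values centred on the mean of each probe set, was removed here. It held 17.4% of the variance. The share given in the methods is another, so the component removed here may not be the one removed in the study. Differences are log2 fold changes of group means, given with their standard errors (SE), and were tested with limma between 9 and 9 mice. A gene is said to rise or fall where its two-sided p, adjusted over the 35556 probe sets by Benjamini-Hochberg, was under 0.1. Levels were compared between mice and not between genes. Means over lists of genes, and Opalin minus the mean of other genes, were likewise compared only between mice. In each mouse the means over hippocampal marker lists were 7.95 to 8.40 (log2) for 8 genes of dentate granule cells and 9.10 to 9.36 for 10 genes of pyramidal cells. Of the 72 arrays, 6 stood apart from their group on at least 1 of the first 3 components, among them CC12 replicate 2, FC12 replicate 2 and CC4 replicate 8.

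Opalin is a membrane glycoprotein found in the myelin and paranodal loops of the central nervous system. It fell in CC12 against CC30 and CC4, and in FC12 against FC24 and FC4, which also differ from FC12 in time since training. In untrained mice Gpr37 fell with it against CC30 and CC4, and Olig2 against CC30 only. The stretch of 250 bases before the annotated start of each of these 3 genes is shown because these are the genes of the list that differed between CC12 and CC30. The sequences are from RefSeq on the build GRCm38.p6, each on the gene's own strand from 5′ to 3′, and 20 of the 26 genes had an entry (not Olig1, Sox10, Gpr17, Bcas1, Fa2h and Trf). Opalin is on the minus strand at chr19:41077114-41077363, Olig2 on the plus strand at chr16:91225300-91225549 and Gpr37 on the minus strand at chr6:25689981-25690230. Capitals mark matches on either strand to 7 strings. Of the E-boxes, which basic helix-loop-helix factors can bind, CACGTG was searched for the clock proteins and CAGCTG and CATCTG for the Olig proteins. The others are the SOX-type strings ACAAAG and ACAAT, and CTGGCAC and CTGGTAC, which the myelin regulatory factor Myrf can bind.
Opalin: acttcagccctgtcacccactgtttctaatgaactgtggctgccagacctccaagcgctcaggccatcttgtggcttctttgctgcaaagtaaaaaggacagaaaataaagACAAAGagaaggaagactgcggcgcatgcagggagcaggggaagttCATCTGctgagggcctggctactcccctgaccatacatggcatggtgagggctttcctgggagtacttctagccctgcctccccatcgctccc
Olig2: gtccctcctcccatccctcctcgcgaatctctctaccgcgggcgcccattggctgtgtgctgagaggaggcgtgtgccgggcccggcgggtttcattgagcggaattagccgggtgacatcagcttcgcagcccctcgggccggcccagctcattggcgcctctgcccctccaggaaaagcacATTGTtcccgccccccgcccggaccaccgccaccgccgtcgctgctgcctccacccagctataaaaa
Gpr37: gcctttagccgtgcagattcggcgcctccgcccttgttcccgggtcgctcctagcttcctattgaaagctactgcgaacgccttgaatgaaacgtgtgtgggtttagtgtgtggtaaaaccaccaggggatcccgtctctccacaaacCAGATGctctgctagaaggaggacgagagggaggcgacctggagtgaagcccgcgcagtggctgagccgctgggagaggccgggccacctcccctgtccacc

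In these stretches Opalin held ACAAAG and CATCTG, Olig2 held ATTGT, which is ACAAT on the other strand, and Gpr37 held CAGATG, which is CATCTG on the other strand. No string contains another. In windows of 300 bases, which add 50 bases after the start, CATCTG was found for 7 of the 20 genes and in 17.2% of all 32851 windows of that table. ACAAAG was found for 6 of the 20 genes and in 18.7% of all windows, and ACAAT for 7 of the 20 genes and in 31.0% of all windows. CTGGCAC was found for 4 genes, Cnp, Hapln2, Mag and Opalin, and in 5.01% of all windows. CTGGTAC was found for Mog alone of the 20 genes and in 2.24% of all windows. CAGCTG was found for Aspa, Hapln2 and Opalin, against 16.3% of all windows. CACGTG was found for 0 of the 20 genes and in 7.15% of all windows. The 20 genes had 26 windows, and a gene was counted if any of its windows matched, while the percentages count single windows. Of the 26 windows, 7 held CATCTG, 8 ACAAAG, 9 ACAAT, 5 CTGGCAC, 1 CTGGTAC, 3 CAGCTG and 0 CACGTG. A match says only that these letters are in the window.

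In CC30 the lowest, median and highest log2 level of Opalin were 7.88, 7.99 and 8.10. In CC12 they were 7.02, 7.44 and 7.68. All 9 CC12 mice lay below all 9 CC30 mice. The difference was -0.62 (SE 0.07, 95% interval -0.76 to -0.47, limma adjusted p = 8.85e-05). In CC4 the lowest, median and highest level were 7.93, 8.06 and 8.24, again above every CC12 mouse. Against CC4 the difference of CC12 was -0.70 (SE 0.07, limma adjusted p = 2.24e-05). Both comparisons use the same CC12 mice.

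The trained groups are other mice. In FC24 the lowest, median and highest log2 level of Opalin were 7.62, 8.0 and 8.13, and in FC4 they were 7.72, 7.91 and 8.20. In FC12 they were 7.24, 7.46 and 7.62. The highest FC12 mouse lay just under the lowest FC24 mouse, and all 9 FC12 mice lay under all FC4 mice. Opalin fell in FC12 against FC24 by 0.48 on the log2 scale (SE 0.07, limma adjusted p = 8.77e-04) and against FC4 by 0.52 (SE 0.07, adjusted p = 6.34e-04). The fall from FC24 to FC12 was smaller than that from CC30 to CC12 by 0.13 (95% interval -0.07 to 0.34, adjusted p = 1.00 for the difference of differences). The same measure for FC4 and CC4 was 0.19 (95% interval -0.03 to 0.40, adjusted p = 0.999).

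Ordered by mean log2 level, Opalin stood at 8.06 in CC4, 7.98 in CC30, 7.96 in FC4, 7.93 in FC24, 7.89 in FC30, 7.84 in RT30, 7.44 in FC12 and 7.36 in CC12. The SDs over 9 mice were 0.07 in CC30, 0.10 in CC4, 0.14 in FC12 and 0.16 to 0.21 in the other groups. The gap between RT30 and FC12 was larger than the SD of either group, and each other gap between neighbours was smaller than the larger of the SDs of that pair. The lowest mice of RT30, FC24 and FC30, at 7.49, 7.62 and 7.68, lay below the highest CC12 mouse. Opalin differed by 0.08 (95% interval -0.08 to 0.25, limma adjusted p = 1.00) between FC12 and CC12, which were dissected at the same hour.

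**Figure D1:**
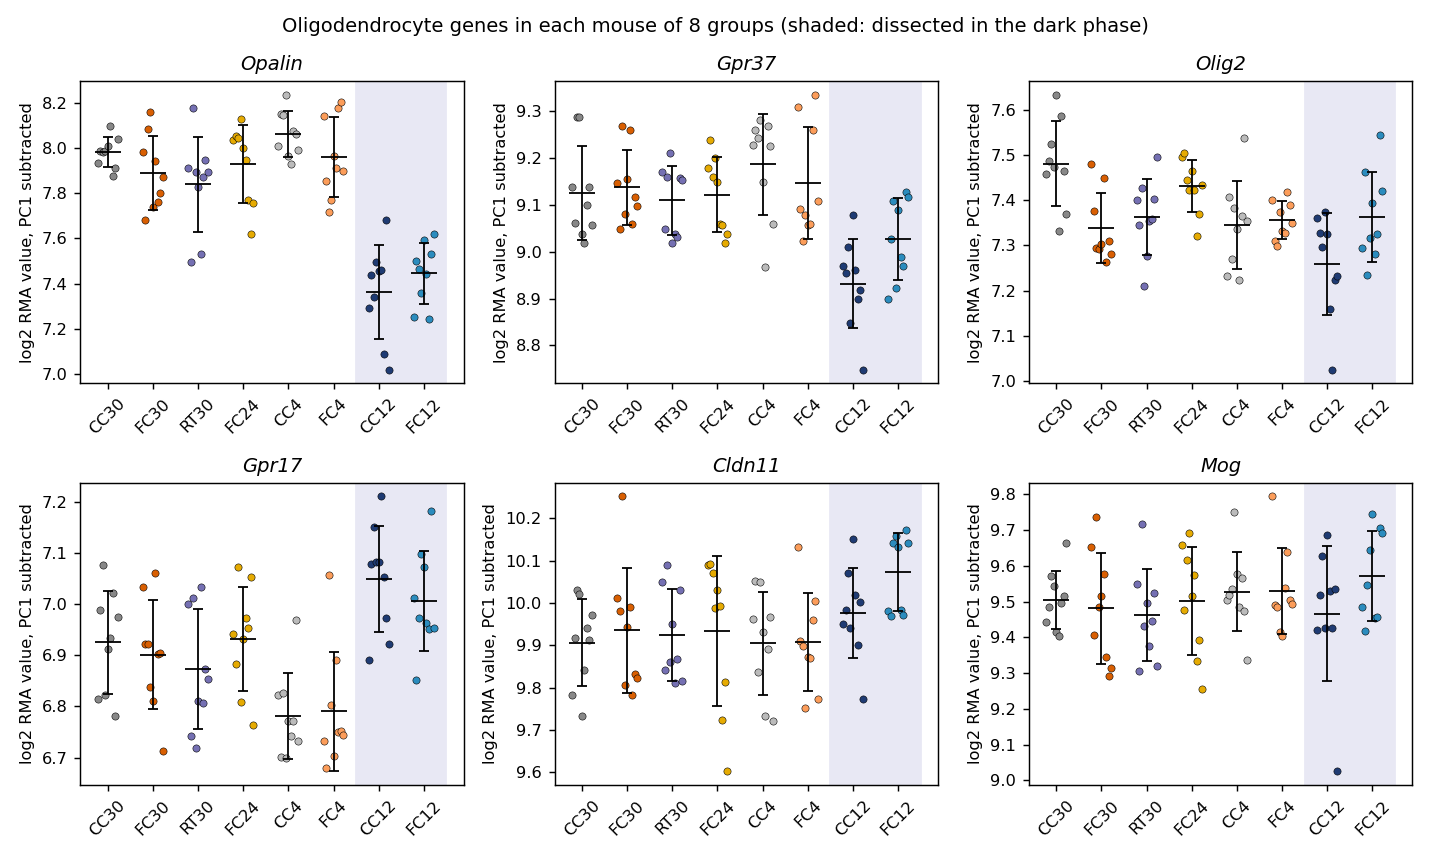
Log2 RMA values with the first principal component subtracted, in each mouse of the 8 groups, for Opalin, Gpr37, Olig2, Gpr17, Cldn11 and Mog, with a bar at the mean and whiskers of 1 SD (n = 9 a group). The shaded groups CC12 and FC12 were dissected in the dark phase. Opalin lies at 7.02 to 7.68 in CC12 and 7.24 to 7.62 in FC12, and Mog shows 1 low mouse in CC12.

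Gpr37, a receptor expressed in maturing oligodendrocytes, fell in CC12 against both untrained light-phase groups. Its lowest, median and highest log2 level were 9.02, 9.10 and 9.29 in CC30, 8.97, 9.23 and 9.28 in CC4, and 8.75, 8.95 and 9.08 in CC12. Of the CC12 mice, 8 of 9 lay below every CC30 mouse and 6 of 9 below every CC4 mouse. The log2 fold change was -0.19 against CC30 (SE 0.05, limma adjusted p = 0.0335) and -0.25 against CC4 (SE 0.05, adjusted p = 0.00445). In trained mice it was -0.09 for FC12 against FC24 (adjusted p = 0.308) and -0.12 against FC4 (adjusted p = 0.233), neither past the threshold.

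Olig2 fell between CC30 and CC12. The lowest, median and highest log2 level were 7.33, 7.47 and 7.63 in CC30 and 7.03, 7.30 and 7.37 in CC12. The groups overlapped, with 7 of 9 CC12 mice below every CC30 mouse. The log2 fold change was -0.22 (SE 0.05, limma adjusted p = 0.0197). CC30 had the highest mean of Olig2 of all 8 groups, and against CC4 the difference of CC12 was -0.09 (adjusted p = 0.485). FC30 was also lower than CC30, by a log2 fold change of -0.14 that was not past the threshold (unadjusted p = 0.0029, adjusted p = 0.391). A gene of RefSeq named Gm52261 overlaps Olig2, and its part in the signal was not tested. Of the other lineage factors, Olig1 had a log2 fold change of -0.14 between CC12 and CC30 (adjusted p = 0.102) and of -0.13 between FC12 and FC24 (adjusted p = 0.168), and Sox10 of -0.07 and -0.02 (adjusted p = 0.705 and 0.907).

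Gpr17, the receptor of newly formed oligodendrocytes, was higher in the dark-phase groups than at 4 h. Its lowest, median and highest log2 level were 6.70, 6.77 and 6.97 in CC4 and 6.89, 7.08 and 7.21 in CC12. They were 6.68, 6.75 and 7.06 in FC4 and 6.85, 6.97 and 7.18 in FC12. All 9 mice of each dark-phase group lay above the mean of its 4 h group, although the groups overlapped. Gpr17 rose in CC12 against CC4 by 0.27 (SE 0.05, limma adjusted p = 0.00192) and in FC12 against FC4 by 0.22 (SE 0.05, adjusted p = 0.0271). CC4 replicate 8 held the highest level in its group, and without it the rise was 0.29 (adjusted p = 4.75e-04). Against the groups of the early light phase the log2 fold changes were 0.12 for CC12 over CC30 (adjusted p = 0.24) and 0.08 for FC12 over FC24 (adjusted p = 0.553). CC4 and FC4 had the lowest means of all groups, with log2 fold changes of -0.14 against CC30 and -0.14 against FC24 that did not pass the threshold (adjusted p = 0.618 and 0.501). A gene named Lims2 overlaps Gpr17, and its part in the signal was not tested. The other genes of this stage, Enpp6 and Bcas1, did not pass the threshold in any of the 12 comparisons. In these, 0% to 5.01% of all probe sets were called. Between CC12 and CC4 Enpp6 had a log2 fold change of -0.13 and Bcas1 of -0.11, against 0.27 for Gpr17.

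The precursor genes passed the threshold in 0 of the 12 comparisons (limma), and 1 value reached an unadjusted p under 0.05, Pdgfra in FC4 against FC24. Group means of Pdgfra lay between 8.25 in FC24 and 8.33 in CC4, with SDs of 0.06 to 0.12. Group means of Cspg4 lay between 7.07 in CC12 and 7.17 in CC30, with SDs of 0.05 to 0.12. Between CC12 and CC30 the log2 fold change was 0.03 for Pdgfra (95% interval -0.07 to 0.13) and -0.09 for Cspg4 (95% interval -0.19 to 0.00).

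**Figure D2:**
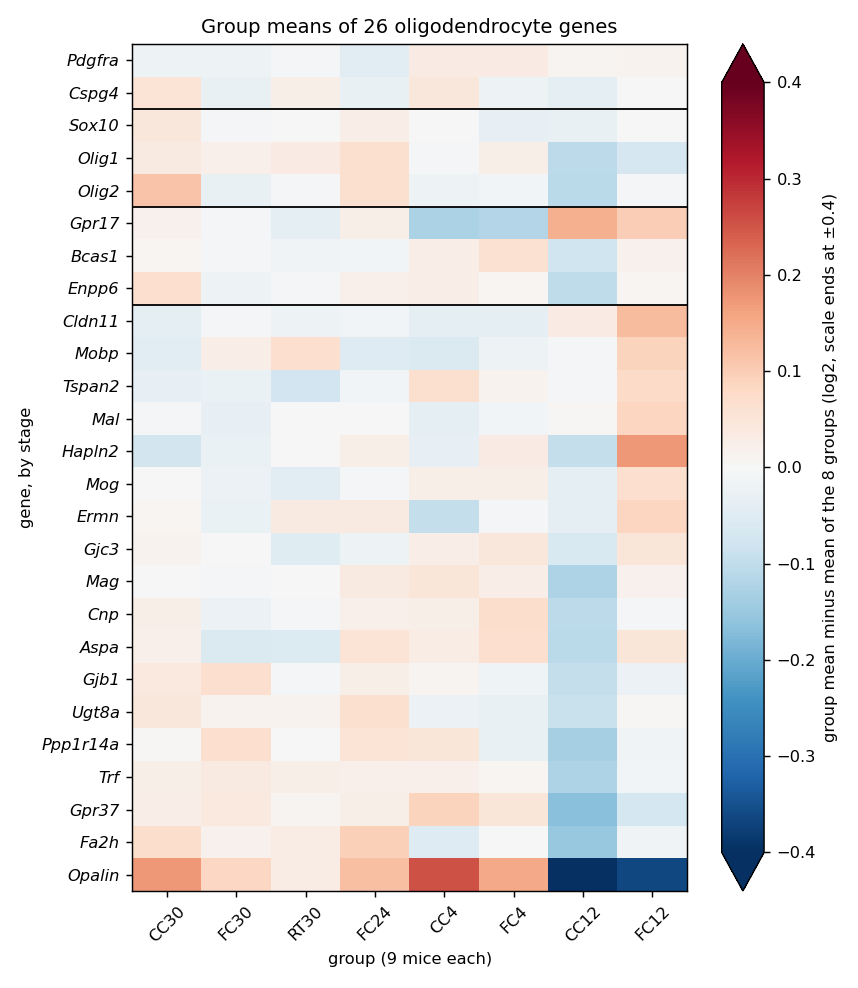
Mean of each group of 9 mice minus the mean of the 8 group means, as log2 values in colour, for the 26 genes ordered by stage (precursor, lineage factors, newly formed, myelinating). Opalin is low in CC12 and FC12, Gpr17 is low in CC4 and FC4 and high in CC12 and FC12, and most myelinating genes are paler.

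Between CC12 and CC30, 3 of the 26 genes were lower past the threshold and 0 higher, where 3.5% of all probe sets were called, 1.44% as lower and 2.05% as higher. At an unadjusted p under 0.05 there were 11 of the 26 genes, and 13.4% of all probe sets. Of the 26 genes, 20 had a log2 fold change below 0, with a median of -0.108, against 51.9% of all probe sets and a median of -0.003. Most of the 26 genes varied together from mouse to mouse, as described below. Counts over them, in this and the other comparisons, are therefore not of independent values. Among the 18 myelinating genes 14 lay below 0. Besides Opalin and Gpr37, the lowest log2 fold changes among them were those of Fa2h, which hydroxylates the fatty acids of myelin lipids (-0.22, adjusted p = 0.174), the iron carrier Trf (-0.15, adjusted p = 0.126) and the phosphatase inhibitor Ppp1r14a (-0.14, adjusted p = 0.182). Of the sheath genes, Mog, Mal and Mobp lay near 0, at -0.04, 0.01 and 0.03. Cnp and Mag lay lower, at -0.13 and -0.12 (limma adjusted p = 0.249 and 0.36). The lipid and acetate enzymes Ugt8a and Aspa had -0.14 and -0.13, and the gap junction genes Gjb1 and Gjc3 -0.13 and -0.07, none past the threshold.

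Between CC12 and CC4, 2 of the 26 genes were lower and 1 higher past the threshold, where 5.01% of all probe sets were called, 2.47% as lower and 2.54% as higher. At an unadjusted p under 0.05 there were 8 of the 26 genes, and 13.9% of all probe sets. The median log2 fold change of the genes was -0.086, with 21 of 26 below 0. Between CC4 and CC30, both in the light phase, 0 of 26 genes passed the threshold (limma), with 2 at an unadjusted p under 0.05, where 0.0731% of all probe sets were called and 6.21% had such an unadjusted p.

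Between FC12 and FC24, 1 of the 26 genes, Opalin, passed the threshold, where 3.19% of all probe sets were called, 1.08% as lower and 2.11% as higher. Of the 26 genes, 6 had an unadjusted p under 0.05, against 12.7% of all probe sets. The median of the 26 genes was -0.010, with 14 below 0. Between FC12 and FC4, 1 gene was lower and 2 were higher, where 4.22% of all probe sets were called, 1.71% as lower and 2.51% as higher. An unadjusted p under 0.05 was found for 5 of the 26 genes and for 15.6% of all probe sets. The genes that rose were Gpr17 and Cldn11, a claudin that seals the layers of the myelin sheath. The lowest, median and highest log2 level of Cldn11 were 9.75, 9.90 and 10.1 in FC4 and 9.97, 10.1 and 10.2 in FC12. The groups overlapped, and all 9 FC12 mice lay above the FC4 mean. The log2 fold change was 0.16 (SE 0.05, adjusted p = 0.0877), and it lost its call when all 8 groups shared a fit (adjusted p = 0.11). Between FC4 and FC24, 0 genes passed (limma), with 3 at an unadjusted p under 0.05, where 0.112% of all probe sets were called and 7.49% had such an unadjusted p.

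**Figure D3:**
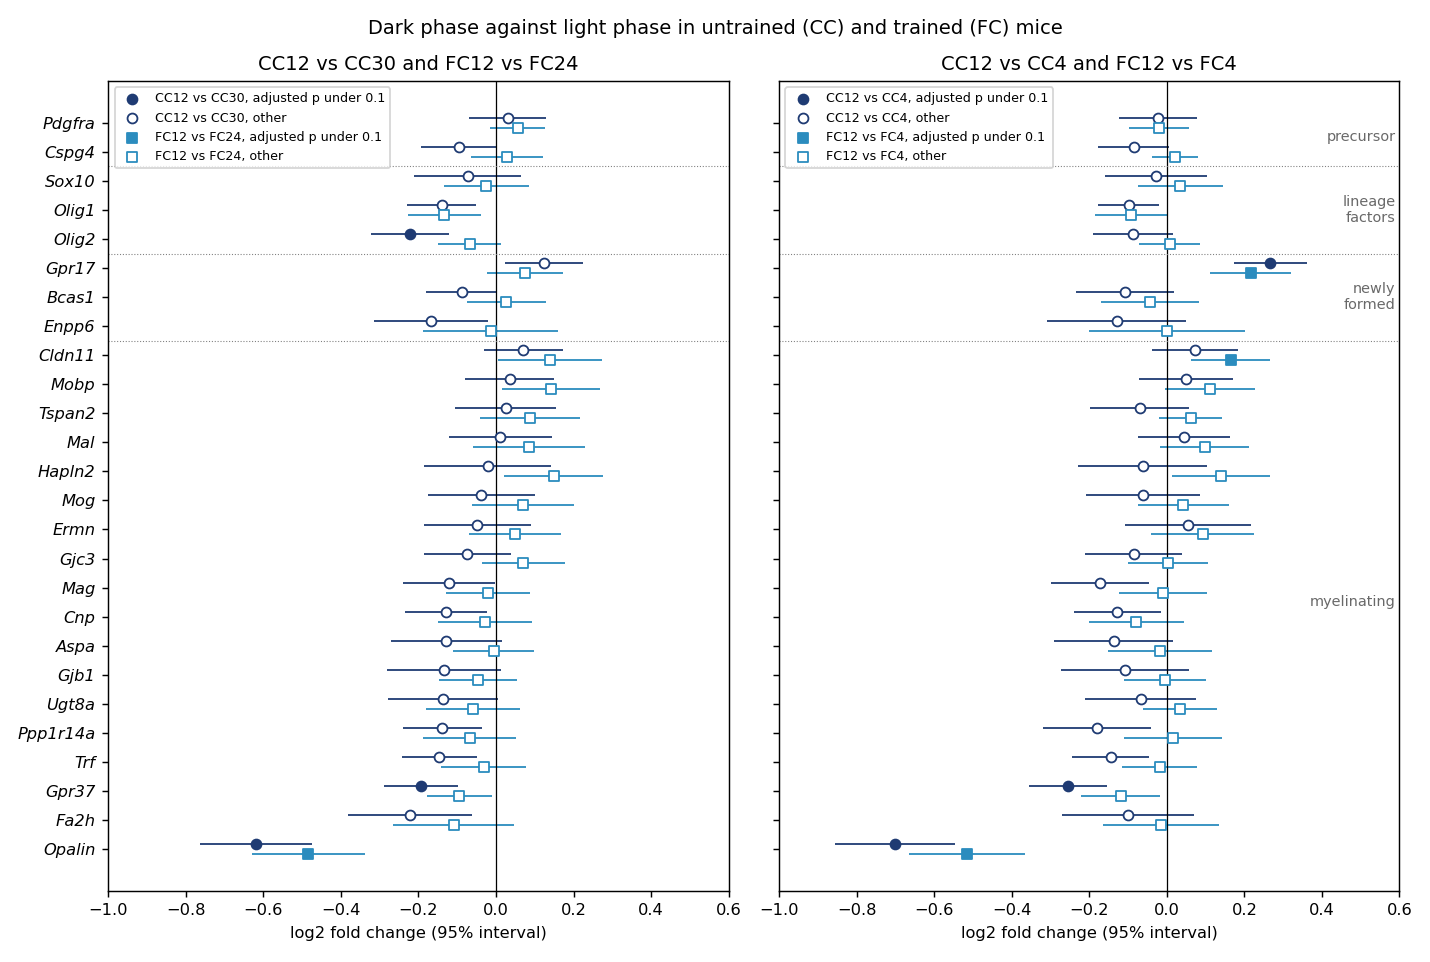
Log2 fold changes with 95% intervals of the 26 genes, ordered by stage, for CC12 against CC30 with FC12 against FC24 (left) and CC12 against CC4 with FC12 against FC4 (right). Filled symbols mark a limma adjusted p under 0.1. Opalin stands to the left of all other genes in the 4 comparisons, at -0.62, -0.48, -0.70 and -0.52, and Gpr17 is filled on the right at 0.27 and 0.22.

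In each mouse the level of Opalin was set beside the mean of the 17 other myelinating genes. Opalin minus that mean ran from -1.51 to -1.04 in CC12 and from -1.54 to -1.29 in FC12, with medians of -1.40 and -1.38. It ran from -0.95 to -0.68 in CC30 and from -0.89 to -0.67 in CC4. In FC4 it ran from -1.04 to -0.71, in FC24 from -1.07 to -0.77, in FC30 from -1.09 to -0.58 and in RT30 from -1.21 to -0.82. All CC12 mice lay below all mice of CC30, CC4 and FC4, and all FC12 mice below all mice of the 6 light-phase groups. The highest CC12 mouse overlapped FC24, FC30 and RT30. The mean of the 17 genes itself was 8.73 ± 0.14 (SD, n = 9) in CC12, 8.85 ± 0.08 in FC12 and 8.80 to 8.83 in the other groups. The lowest mouse was CC12 replicate 9, at 8.46. Without it, Opalin, Olig2 and Gpr37 kept their calls between CC12 and CC30, with log2 fold changes of -0.58, -0.22 and -0.17.

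**Figure D4:**
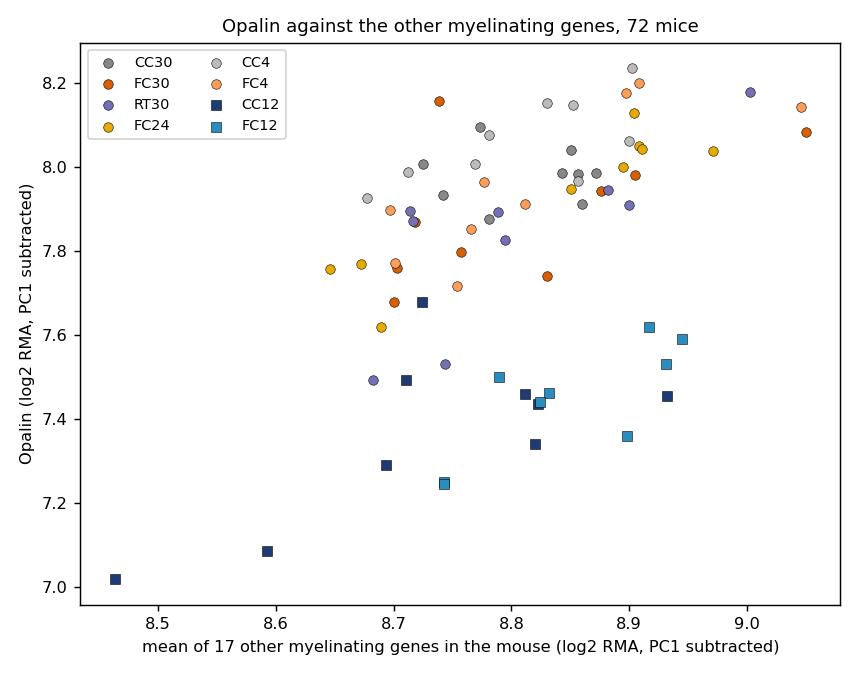
Level of Opalin against the mean of the 17 other myelinating genes in each of 72 mice (log2 RMA, first component subtracted). Most mice of CC12 and FC12 (squares) lie below those of the light-phase groups at the same mean of the other genes, and CC12 replicate 9 lies at the lower left at 8.46 and 7.02.

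Training was tested against untrained mice of the same time of day. Of the 26 genes, 0 passed the threshold (limma) in FC30 against CC30, RT30 against CC30, FC24 against CC30, FC4 against CC4 or FC12 against CC12, where 0.256%, 0.278%, 0%, 0% and 0% of all probe sets were called. At an unadjusted p under 0.05 the numbers were 1, 1, 0, 0 and 7 of the 26 genes, against 6.76%, 6.91%, 4.31%, 5.35% and 4.06% of all probe sets. The methods' pairwise statistic, with equal variances assumed here, called 0 of the 26 genes in each, both with Benjamini-Hochberg adjustment and with local false discovery rates. Retrieval against trained mice without retrieval, RT30 against FC24, gave 0 calls and 0 genes at an unadjusted p under 0.05, with 0.152% of all probe sets called and 6.2% at that unadjusted p. The gene at an unadjusted p under 0.05 was Olig2 both in FC30 and in RT30, with log2 fold changes of -0.14 and -0.12 against the same CC30 mice.

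Between FC12 and CC12, 25 of the 26 genes had a log2 fold change above 0, with a median of 0.097, where the median of all probe sets was 0.00 and 50.0% of them lay below 0. The exception was Gpr17 at -0.04. Since most of these genes varied together within groups, their shared sign does not count as 26 separate observations. Hapln2, a link protein of the matrix at the nodes of Ranvier, had the highest value. Its lowest, median and highest log2 level were 6.01, 6.42 and 6.77 in CC12 and 6.51, 6.72 and 6.93 in FC12, and the groups overlapped. The log2 fold change of Hapln2 was 0.27 (SE 0.08, unadjusted p = 0.00389, limma adjusted p = 1.00). The other genes at an unadjusted p under 0.05 were Trf, Mag, Ppp1r14a, Gpr37, Olig2 and Aspa, with log2 fold changes of 0.11, 0.14, 0.12, 0.10, 0.10 and 0.16. Without CC12 replicate 9 the median was 0.071, and 3 genes were left at an unadjusted p under 0.05. Of 57 other oligodendrocyte genes 40 lay above 0, with a median of 0.032. Whether differences between times of day were unlike in trained and untrained mice was tested as the difference of differences. In trained mice these times also differ in time since training. In the 3 tests 0 of the 26 genes passed the threshold (limma), where 0% of all probe sets were called in each. An unadjusted p under 0.05 was found for 1, 2 and 0 genes, against 3.94%, 4.44% and 4.06% of all probe sets. The medians over the 26 genes were 0.101 for FC24 and CC30, 0.098 for FC4 and CC4, and 0.003 between both light-phase times. Without CC12 replicate 9 the first 2 were 0.066 and 0.067, and the genes at an unadjusted p under 0.05 were 1 and 0. Without CC4 replicate 8 the test with FC4 and CC4 had a median of 0.082 and 0 such genes. The first 2 of these and the comparison of FC12 with CC12 share the CC12 and FC12 mice.

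Of a list of 62 other oligodendrocyte genes, 57 were measured. Between CC12 and CC30, 2 rose and 2 fell, where 2.05% of all probe sets rose and 1.44% fell. Between CC12 and CC4, 0 rose and 5 fell, where 2.54% of all probe sets rose and 2.47% fell. Pllp, a proteolipid of myelin membranes, fell in CC12, with log2 fold changes of -0.28 against CC30 and -0.37 against CC4 (limma adjusted p = 0.00796 and 6.95e-04). It also fell in FC12, with -0.16 against FC24 and -0.15 against FC4 (limma adjusted p = 0.0318 and 0.0594). Tmem88b fell in CC12 against CC30 and CC4 (-0.22 and -0.23), and Serpinb1a, Il33 and the transcription factor Nkx2-2 fell in CC12 against CC4 (-0.34, -0.19 and -0.17). Vcan, a proteoglycan of precursor cells, rose in CC12 against CC30 and in FC12 against FC24 (0.18 and 0.22), and Bmp4 rose in CC12 against CC30 (0.27). In FC12 against FC24, 2 of the 57 rose and 2 fell, where 2.11% of all probe sets rose and 1.08% fell. In FC12 against FC4, 1 rose and 2 fell, where 2.51% of all probe sets rose and 1.71% fell. Anln, a septin partner in myelin, rose in both (0.21 and 0.26), Cdk18 fell in the first (-0.15) and Gpr37l1 in the second (-0.09).

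From mouse to mouse within groups, most of the genes varied together. Mog, a protein of the outermost myelin layer, was used as the reference, values were centred on their group means, and Pearson's r was tested with 100000 permutations within groups, adjusted over 35555 probe sets. Of the 25 other genes, 21 had a positive r with an adjusted permutation p under 0.1, where 1.11% of all probe sets did. The median r was 0.65 over 72 mice. The highest values were those of Mag (r = 0.83, Spearman's rho = 0.80), Cldn11 (r = 0.82, rho = 0.81), Trf (r = 0.82, rho = 0.81) and Mobp (r = 0.81, rho = 0.76), each with a permutation p of 1e-05, the smallest these permutations can give, and an adjusted p of 0.00349. Without the 2 mice farthest from the median of Mog (CC12 replicate 9 and FC4 replicate 1), r was 0.80, 0.81, 0.80 and 0.76.

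Among the 25 genes, the lowest r were those of the 2 precursor genes. Over 11 other precursor genes r ran from -0.07 to 0.41. The highest was that of C1ql1 (rho = 0.34, adjusted permutation p = 0.086, r = 0.33 without the 2 mice). Pdgfra had r = 0.00 (rho = 0.07, permutation p = 0.995, adjusted p = 0.999) and Cspg4 had r = 0.02 (rho = -0.08, permutation p = 0.861, adjusted p = 0.976). Olig2 had r = 0.23 (rho = 0.28, permutation p = 0.0783, adjusted p = 0.543) and Gpr17 r = 0.33 (rho = 0.33, permutation p = 0.00697, adjusted p = 0.211). Olig1 and Sox10 had r = 0.59 and 0.67 (rho = 0.60 and 0.61, adjusted permutation p = 0.00569 and 0.00349), and Enpp6 and Bcas1 r = 0.41 and 0.55 (rho = 0.42 and 0.51, adjusted permutation p = 0.0736 and 0.00349). Opalin, whose mean was lowest in CC12 and FC12, had r = 0.65 with Mog within groups (rho = 0.65, permutation p = 1e-05, adjusted p = 0.00349). Without the 2 mice its r was 0.60. The 5 genes outside the list with the highest r were Efhd1 (0.80), Adamts4 (0.76), Pllp (0.76), Cd82 (0.73) and Ttyh2 (0.73), each with a permutation p of 1e-05 over 72 mice, and r = 0.78, 0.73, 0.71, 0.71 and 0.70 without the 2 mice. Their rho was 0.77, 0.67, 0.70, 0.71 and 0.71. Of 71 markers of other cells, 2 had a positive r with an adjusted permutation p under 0.1. These were the microglial complement gene C1qb (r = 0.42, rho = 0.40, adjusted permutation p = 0.0437, r = 0.38 without the 2 mice) and Plekhg1 of the thalamus list (r = 0.43, rho = 0.22, adjusted permutation p = 0.061, r = 0.31 without the 2 mice), both with a higher r than Enpp6. The median r was 0.33 over 9 microglial genes, 0.20 over 10 astrocyte genes and -0.05 over 9 choroid plexus genes, against 0.35 over the 57 other oligodendrocyte genes, of which 25 were called.

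**Figure D5:**
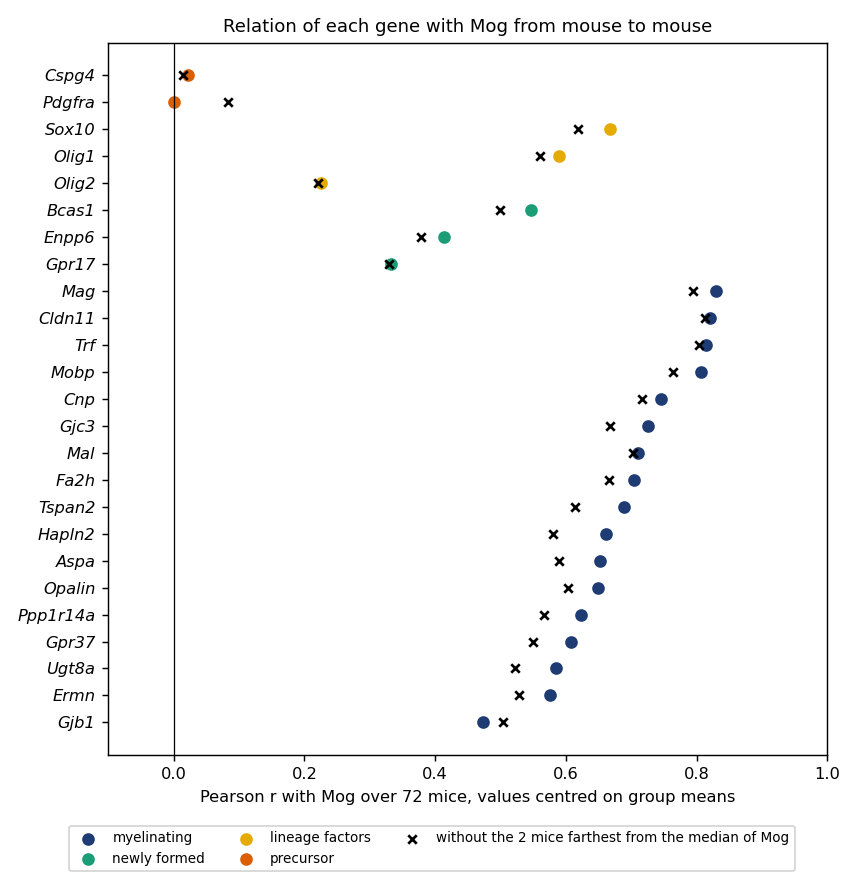
Pearson's r of each of 25 genes with Mog over 72 mice, values centred on group means, coloured by stage. Crosses give r without the 2 mice farthest from the median of Mog. Myelinating genes lie between 0.47 (Gjb1) and 0.83 (Mag), and the precursor genes Pdgfra and Cspg4 at 0.00 and 0.02.

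Some markers of other cells also differed between the dark and the light phase. Of all probe sets, 2.05% rose and 1.44% fell past the threshold in CC12 against CC30, and 13.4% had an unadjusted p under 0.05. Of 10 astrocyte genes, Fgfr3 and Gjb6 rose in CC12 against CC30 (0.24 and 0.18), and the mean of the 10 ran from 9.50 to 9.55 in CC30 and from 9.50 to 9.58 in CC12 (log2). Of 9 endothelial genes, 4 passed the threshold in CC12 against CC30. The transporters Slc2a1, Slco1a4 and Abcb1a rose (0.24, 0.22 and 0.18) and Pecam1 fell (-0.17), while the mean of the 9 ran from 7.91 to 8.04 in CC30 and from 7.89 to 8.03 in CC12. Of 8 dentate granule cell genes, C1ql2 and Plk5 fell (-0.25 and -0.22), and their mean ran from 7.97 to 8.40 in CC30 and from 8.0 to 8.25 in CC12. Of 9 microglial genes, Cx3cr1 fell (-0.25), and their mean ran from 7.47 to 7.58 in CC30 and from 7.33 to 7.57 in CC12. Of 9 genes of the choroid plexus, a tissue that borders the hippocampus, 0 passed the threshold (limma) and 1 had an unadjusted p under 0.05. All 9 had a log2 fold change above 0 (0.15 to 1.43). Their mean ran from 5.37 to 6.96 in CC30 and from 5.66 to 8.08 in CC12. Its medians over the mice of CC30 and CC12 lay close together, at 5.73 and 5.82, with SDs of 0.45 and 0.96. Of 10 pyramidal cell genes and 8 meningeal genes, 0 passed the threshold (limma), with 3 and 1 at an unadjusted p under 0.05. Of 8 genes of the thalamus next to the hippocampus, 0 passed (limma) and 1 had an unadjusted p under 0.05, and the mean ran from 7.27 to 7.59 in CC30 and from 7.27 to 7.61 in CC12. The part of these cells in the values of the oligodendrocyte genes was not tested.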

How the data were processed

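Total RNA of both hippocampi of each mouse was measured by the authors on whole-transcript arrays, which they summarised with RMA in Affymetrix Power Tools. The deposited values are log2 signals, background corrected and quantile normalized by the authors, for 35556 probe sets on 72 arrays. Gene symbols came from the platform annotation. The number of arrays sets the precision. Over all probe sets the SE of a log2 difference had a median of 0.0503 for CC12 against CC30 and 0.05 for FC12 against CC12. Per the study's methods, the mice of a group came from separate conditioning experiments spread over days, and litters are not given.

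Groups were taken from the sample labels. After subtraction of the first principal component, found after centring each probe set on its mean, each of 12 comparisons was fitted to its 18 arrays, and 3 differences of differences to their 4 groups, with limma 3.58.1 in R 4.3.3 (lmFit, eBayes, Benjamini-Hochberg over all probe sets, adjusted p under 0.1, two-sided). limma was used in place of the authors' pairwise t-statistics with local false discovery rates. These were an alternative setting, with equal variances assumed and the empirical null written anew after the published method. limma was tested on simulated data for CC12 against CC30, where it found 50 of 100 probe sets changed by 0.2 and 86 of 100 changed by 0.5. Of 152 probe sets called there, 16 had not been changed. The simulated probe sets varied independently, unlike most of the genes described here. Relations with Mog, permutations and figures were made in Python 3.11.15 with numpy 2.4.6, scipy 1.17.1, pandas 2.3.3 and matplotlib 3.10.9.

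The genes, the marker lists and the tests were chosen with earlier results of these data known. Any of the 28 genes could be named, and of the other oligodendrocyte genes those past the threshold. Sequences were chosen as Opalin and the other genes past the threshold between CC12 and CC30. Besides the main setting, 10 alternatives were run for the comparisons and 2 for the relation with Mog, and 3 were added after seeing the data, namely leaving out CC4 replicate 8, leaving out CC12 replicate 9, and the first component of values also scaled to unit SD. That component held 10.8% of the variance, and its scores had an absolute r of 0.573 with those of the main one over 72 arrays. Quantitative PCR and protein measurements were not analysed here.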

Additional observations from a re-analysis of the deposited data

Results flagged for a closer look

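In 9 of 208 combinations of gene and group, 1 mouse lay far from the others, judged by its gap to the next mouse as a share of the range of its group. Chance flags about 1 in 20 groups. Mog was low in CC12 replicate 9, at 9.03 with the next mouse at 9.42 (share 0.597). Gpr17 was high in CC4 replicate 8, at 6.97 with the next at 6.83 (0.528). Cnp was high in CC30 replicate 9 (0.64) and in FC30 replicate 3 (0.547), and Cldn11 was high in the same FC30 mouse (0.509). Mobp was high in RT30 replicate 3 (0.53), and Ppp1r14a in CC30 replicate 3 (0.502). Gjb1 was high in CC12 replicate 5 (0.555) and low in FC12 replicate 7 (0.518).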

How the results depend on the processing

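Opalin kept its direction and its call in the 4 dark-phase comparisons under all alternatives run, with log2 fold changes of -0.635 to -0.576 against CC30, -0.724 to -0.658 against CC4, -0.512 to -0.466 for FC12 against FC24 and -0.528 to -0.51 for FC12 against FC4. Of 119 recomputed values of genes called, 113 kept their call, 6 kept only the direction and 0 reversed. Of 49 recomputed counts whose main count was above 0, 38 stayed within 1.5 times of it. The 11 tests of groups with a main count of 0 had 0 under all alternatives, which says little of stability. With the methods' t-test (equal variances assumed) and local false discovery rates, CC12 against CC30 had 1 gene called in place of 3, and FC12 against FC4 had 1 in place of 3. Olig2, Gpr37, Gpr17 and Cldn11 lost their calls there (local false discovery rates of 0.122, 0.203, 0.269 and 0.562). For CC12 against CC30 the count was 5 with an intensity trend and robust estimation, 5 without probe sets from the dimmest 25% and 5 with 1 mean value for each gene, each of the last pair testing fewer features. Olig1 and Trf were the genes added in these 3 settings. For CC12 against CC4 the count was 6 with the first 2 components removed, 6 with all 8 groups in one fit, 5 with 1 mean value for each gene and 5 with the first component of scaled values removed, in place of 3. For FC12 against FC24 it was 2 with all 8 groups in one fit and 2 with 1 mean value for each gene, where Olig1 was added to Opalin. The other causes were not tested. Both alternatives of the relation with Mog gave 21 genes, as the main setting did.

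The deviations of same-numbered mice from their group means had a median correlation of -0.03 to 0.09 in the 12 comparisons. At most 3 of 9 pairs were over 0.1 in a comparison (highest 0.376, in FC4 against CC4), and no label says that a number marks a shared day, so the numbers were not taken to pair the mice. With the replicate number as a block, the count was 3 for CC12 against CC30, 4 for CC12 against CC4, 1 for FC12 against FC24 and 2 for FC12 against FC4, where Cldn11 had an adjusted p of 0.201. With 9 mice a group, changes of 0.2 on the log2 scale were found for 50 of 100 probe sets in data simulated for CC12 against CC30. Differences of this size and smaller can be missed, and also larger ones in genes with a wide spread, such as Hapln2 (SD 0.22 in CC12). The other comparisons were not simulated.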
